A study of Mus musculus with 8 samples.

Results

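The genes described here are 32 mouse genes of glycolysis and of the response to low oxygen, chosen by symbol: glucose and lactate carriers, the enzymes that turn glucose into lactate, the kinases that hold back pyruvate oxidation, and a set of genes known as targets or regulators of the hypoxia factor HIF-1. A gene was kept if it had 10 or more counts in at least 2 of the 8 libraries. All 32 listed genes met this rule, among 43346 genes listed in each deposited table, and all 32 also passed the filter on low counts that left 18055 genes for testing. The libraries come from mouse embryonic stem cells, pluripotent cells of the early embryo, of a mixed 129xC57BL/6 background and cultured on gelatin in medium with serum and the cytokine LIF. Every line, the controls included, carries Rosa26Cre-ERT2/BirA-V5, a Cre recombinase fused to a ligand-binding domain and a biotin ligase. The 4 groups of 2 libraries are this parental genotype, called wild type here; a line with the added genotype TRIM71-/-, a knockout of the RNA-binding protein and ubiquitin ligase TRIM71; a line with the mutated 3'UTR, 3'UTR(mut), on both alleles of Mbnl1; and a line stably transfected with MBNL1::T2A::Puromycin, which overproduces the splicing factor MBNL1. Whether both libraries of a line stem from independent cultures or clones is not stated in the labels. The p-values below therefore measure only the spread between these libraries, and a difference between lines cannot be told apart from a difference between clones.

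Total counts lay between 75056306 and 86508533 per library. All levels below are in CPM, counts scaled by library size and by a further factor per library from edgeR's TMM scaling. Trim71 had 630 and 628 CPM in wild type and 101 and 105 in the knockout. Mbnl1 had 25.9 and 26.1 CPM in wild-type cells, 48.8 and 50.9 in the knockout, 28.6 and 27.4 for the mutant and 193 and 195 in the overexpressing line, where reads of the transgene and of the endogenous gene are not separated. Mbnl1 in the mutant did not pass the test (adjusted p = 0.086). Marker lists moved with the lines. The 8 embryonic stem cell markers summed to 4177 to 4185 CPM in wild type and 5218 to 5238 in the knockout, and lay between 4709 and 4858 in the other lines. In each altered line 6 of the 8 rose and none fell. The share of all tested genes that rose was 24.2% for the knockout, 8.32% for the mutant and 27.7% for overexpression. The share that fell was 20.9%, 7.69% and 27.2%. The 7 fibroblast or feeder markers summed to 3.74 to 3.94 CPM in wild type, 7.07 to 7.29 in the knockout and 3.89 to 5.96 elsewhere. Only 4 of these 7 were tested. Of the 4, 2 rose in the knockout, 1 rose and 1 fell in the mutant, and 2 rose and 2 fell in overexpression. The 5 neural markers all fell in the knockout, where they summed to 109 to 110 CPM against 155 to 157 in wild type, and to 139 to 159 elsewhere. Of these neural markers 2 fell in the mutant, and in overexpression 2 rose and 2 fell. Of the 6 primitive endoderm markers 5 fell in the knockout, by 2.08 (Dab2) to 3.49 (Gata4) on the log2 scale, while Foxa2 rose by 2.31. Their sum, 30.3 to 33.5 CPM in wild type and 22.0 in both knockout libraries, thus sums changes of opposite sign. All 6 fell in overexpression (median log2 -0.84), and in the mutant 3 rose and 1 fell. Of 4 tested trophoblast markers, 1 rose and 3 fell in the knockout, 1 fell in the mutant and 3 fell in overexpression. Of 4 tested mesoderm markers, 1 fell in the knockout and 2 rose in overexpression. The trophoblast and mesoderm lists summed to at most 5.88 and 2.26 CPM in any library. The part of these markers in the results below was not tested. In such bulk samples, fewer cells that express a gene and less RNA per cell cannot be told apart.

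Glycolysis splits glucose into pyruvate in the cytosol and yields ATP without oxygen, and lactate dehydrogenase then regenerates the oxidised cofactor by turning pyruvate into lactate, which monocarboxylate carriers export. Pyruvate dehydrogenase kinases keep pyruvate out of the mitochondria. When oxygen is scarce, prolyl hydroxylases of the Egln family no longer mark HIF-1α for destruction, and HIF-1 raises many of these genes through short DNA elements whose core reads ACGTG or GCGTG. Mouse embryonic stem cells in serum and LIF are known for high glycolytic flux alongside active respiration.

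The promoter windows of the members were read for these cores, to show what letters stand before genes that moved in opposite directions. RefSeq windows on GRCm38.p6, from 250 bases before to 50 bases after a start, were held for 30 members (43 windows). Those of Slc2a3 and Bnip3l were not matched. ACGTG on either strand was present in a window of 21 of the 30 members (70%), against 28.3% of the 12034 tested genes with a window. Counted by window, it was present in 53.5% of the 43 member windows and 19.6% of all 32851 windows. GCGTG on either strand was present for 20 of the 30 (66.7%), against 54.1% of tested genes. Counted by window, the shares were 58.1% of member windows and 32.4% of all windows. The 8 sites below come from 4 members that rose in the knockout or in overexpression and 4 that fell in both. Each is written 5′ to 3′ on the strand that reads ACGTG, with that core in capitals, and placed by the GENCODE annotation.
Slc2a1, chr4:119108699-119108723, plus strand, reaching into an exon: cccgccccggACGTGctccccaggc
Hk2, chr6:82774492-82774516, plus strand, outside annotated genes: ccggacagtgACGTGgatgtgctca
Egln1, chr8:124949308-124949332, minus strand, reaching into an exon: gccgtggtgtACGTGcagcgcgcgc
Slc16a3, chr11:120949043-120949067, plus strand, reaching into an exon: tgcgcgggggACGTGccgcgcgacg
Ldha, chr7:46845650-46845674, plus strand, in an intron before an internal start: gtcgcagcacACGTGgagccactct
Slc16a1, chr3:104638455-104638479, plus strand, outside annotated genes: gcgccgggtcACGTGgcgggaaggg
Bnip3, chr7:138909599-138909623, minus strand, outside annotated genes: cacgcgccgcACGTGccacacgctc
P4ha1, chr10:59323270-59323294, minus strand, outside annotated genes: agccctcgctACGTGcgctctgtca
These sites were picked from members of both directions, so they cannot show whether the core goes with a direction. In overexpression, 7 of the 21 members with ACGTG rose and 10 fell, and of the 9 members without it 6 rose and 2 fell. In the knockout the numbers were 7 and 7 with the core, and 1 and 4 without. The same counts were not made over all tested genes, and a relation of the core to direction was not tested. In Ldha, Slc16a1 and Bnip3 the printed core overlaps CACGTG, the palindrome that E-box factors also read. A match describes these letters only.

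In the TRIM71 knockout, 9 of the 32 members rose and 12 fell at an adjusted p under 0.05 in edgeR's quasi-likelihood test, where 24.2% of all tested genes rose and 20.9% fell. Of these 21 members, 7 changed by 1.25-fold or more, 6 upward and 1 downward, a size that 25.2% of all tested genes reached with a call. In the Mbnl1 3'UTR mutant 6 members rose and 3 fell, against 8.32% and 7.69% of all genes, and 5 of them changed by 1.25-fold or more, against 7.26%. In Mbnl1 overexpression 13 members rose and 13 fell, against 27.7% and 27.2%, and 14 reached 1.25-fold, against 33.9%. Abundant genes are called more readily, so the 30 members with a mean of at least 5 CPM were also set beside the 10109 tested genes of that level. There 66.7% of members and 55.4% of genes were called in the knockout, beside 30% and 21.3% for the mutant and 80% and 66.3% in overexpression. Calls of 1.25-fold or more made up 23.3% of these members and 20.5% of these genes in the knockout. They made up 16.7% and 5.79% for the mutant and 40% and 29.5% in overexpression. The median log2 change over the members was -0.02, 0.02 and 0.03 in these comparisons, beside -0.01 in each over all tested genes. All comparisons with wild type share the same 2 control libraries.

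**Figure D1:**
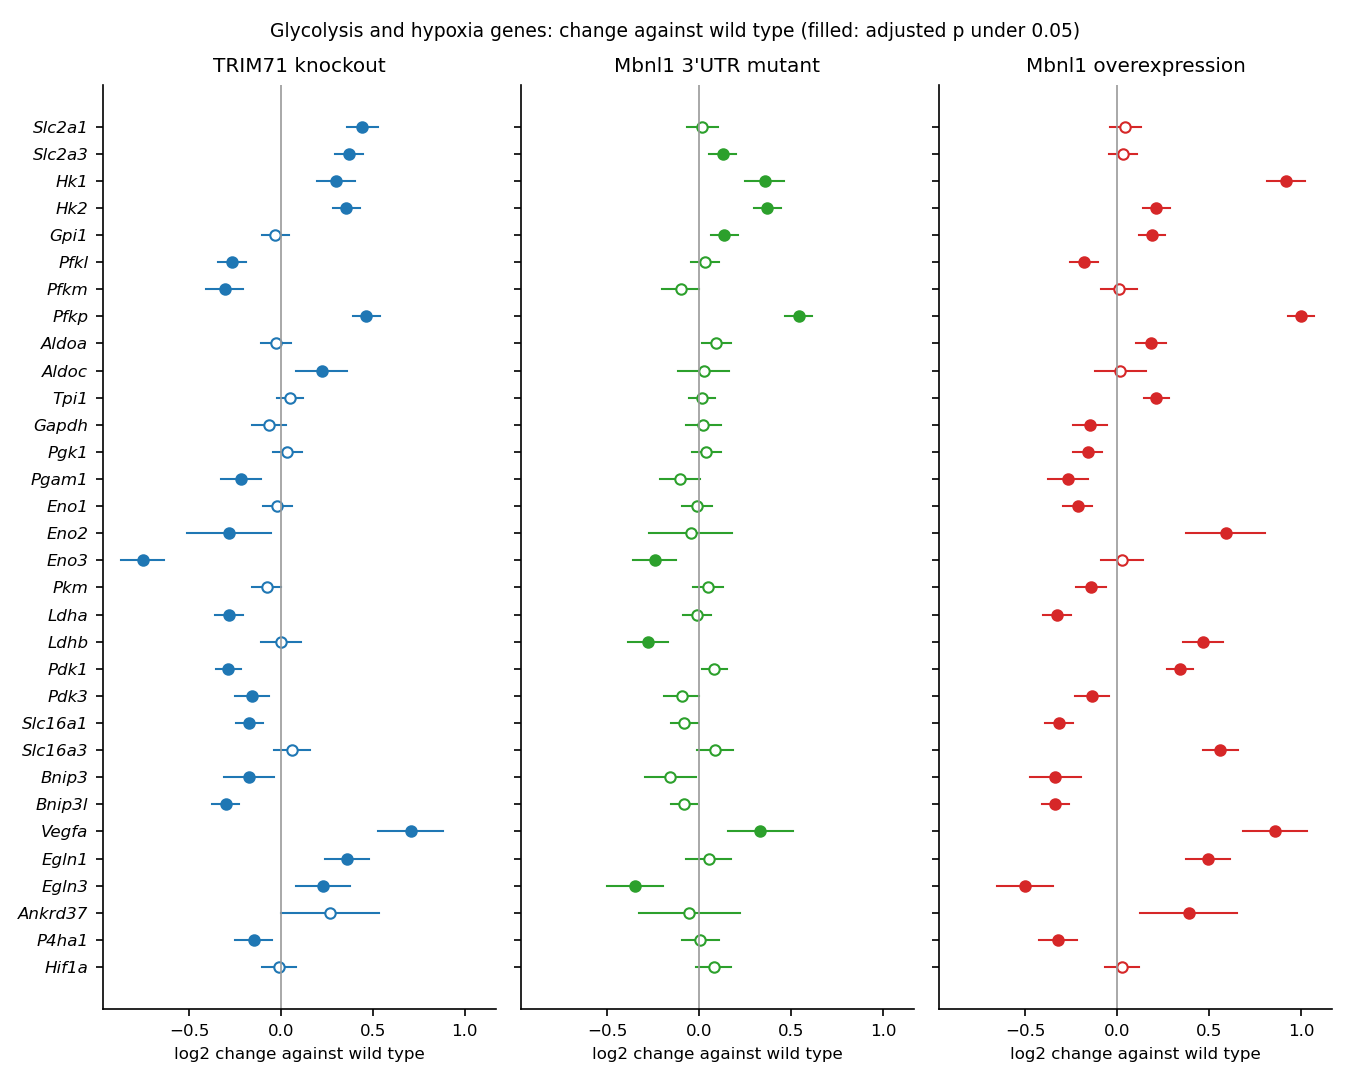
Log2 change of each of the 32 members against wild type (horizontal axis) in the TRIM71 knockout, the Mbnl1 3'UTR mutant and Mbnl1 overexpression. Points are edgeR estimates and lines their 95% intervals; filled points passed an adjusted p of 0.05 (21, 9 and 26 members), and values run from -0.75 (Eno3 in the knockout) to 1.00 (Pfkp in overexpression).

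Only Hk1, Hk2, Pfkp and Vegfa rose in all 3 lines among the 32 members, and no member fell in all 3. Hif1a was the only member called in none. Between the knockout and overexpression, 5 members rose in both, 8 fell in both, and 3 (Eno2, Pdk1 and Egln3) were called in opposite directions. The knockout calls of Eno2 and Egln3 did not hold under every alternative. Nor did those of Bnip3, P4ha1 and Pdk3 among the members that fell in both, the overexpression call of Pdk3, or the mutant call of Vegfa. Over all tested genes, 3.37% rose in all 3 lines, 2.69% fell in all 3 and 29.7% were called in none, beside 12.5%, 0% and 3.12% of the members. Between the knockout and overexpression 12.7% of all tested genes rose in both, 11.1% fell in both and 7.39% were called in opposite directions, beside 15.6%, 25% and 9.38% of the members. These counts are fixed in part by the shared controls and carry no test. The shares of all tested genes are not matched for level, and abundant genes are called more readily.

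Levels of different genes were compared per kb of annotated exon, merged over all transcripts of a gene. Which transcripts the cells use was not determined, so ranks between genes and isoenzyme shares depend on these merged lengths. In wild type the last enzyme of glycolysis, Pkm (pyruvate kinase), was highest at 610 CPM per kb, followed by Gapdh at 490, Aldoa at 400, Ldha at 370 and Eno1 at 206. Slc2a3 stood at 128 and Slc2a1 at 97.3. Among the HIF targets and regulators, Hif1a had 37.5 CPM per kb, Pdk1 33.3 and Bnip3l 30.7, above Eno3 (18.1), Pfkm (12.4) and Pfkp (10.7). P4ha1 had 9.73, Vegfa 6.79, Bnip3 4.77, Egln1 4.64, Egln3 3.12 and Ankrd37 1.59. Eno2, the neuronal enolase, was lowest at 0.78. Neighbours such as Tpi1 (98.9) and Slc2a1 (97.3), or Bnip3 and Egln1, differed by less than the spread between the wild-type libraries.

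**Figure D2:**
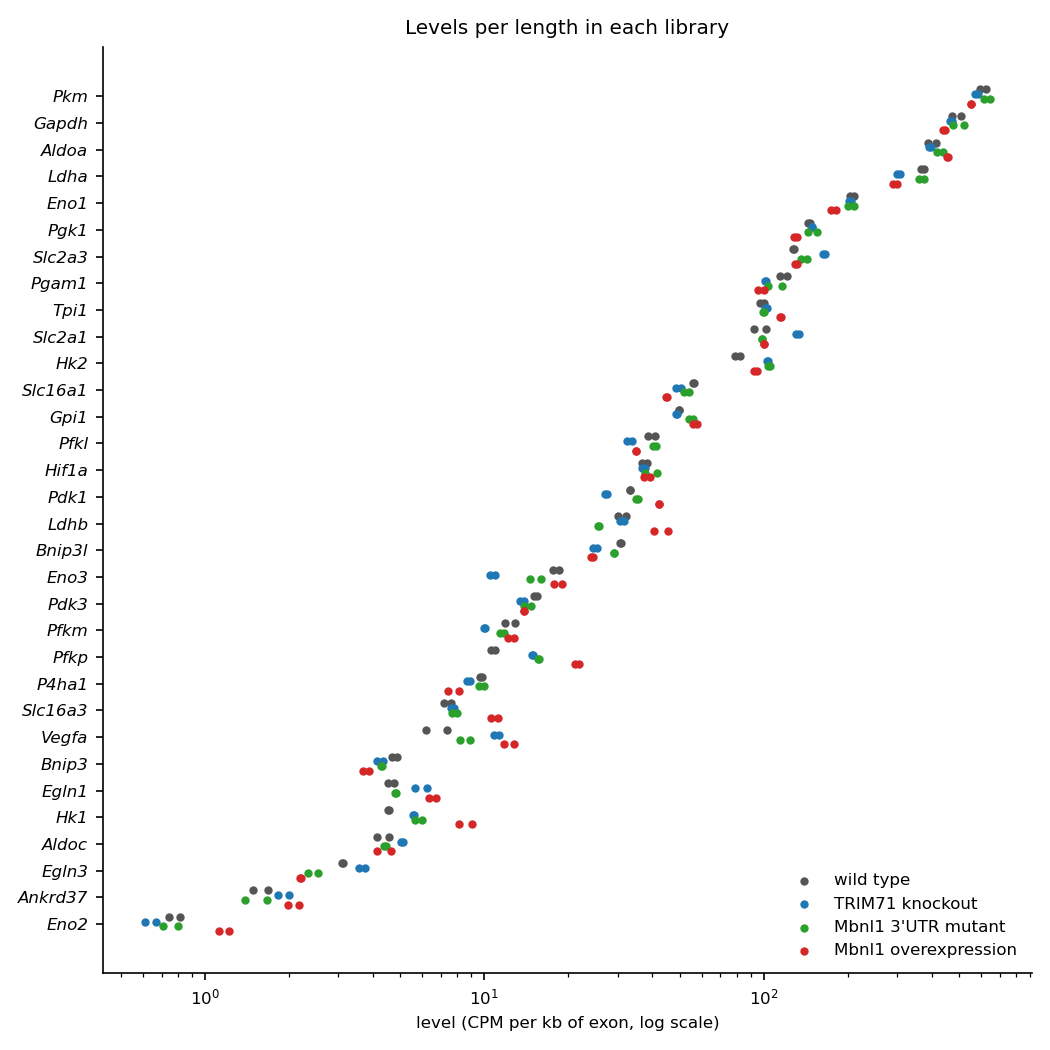
Level of each member in each of the 8 libraries, as CPM per kb of exon on a log axis, ordered by the wild-type mean, with colours for the 4 groups. The levels run from Pkm (610 in wild type) to Eno2 (0.78), a wider range than any difference between groups.

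Both glucose carriers rose in the knockout. Slc2a1, the GLUT1 carrier (chr4:119108711-119137983, mm10), had 358 and 325 CPM in wild-type cells, 459 and 468 in the knockout, 346 and 344 for the mutant and 353 and 351 in overexpression. Both knockout libraries lay above all 6 others, and the rise was 1.36-fold (log2 0.44 ± 0.04 SE, adjusted p = 9.57e-08). Slc2a3, the high-affinity GLUT3 carrier, went from 921 and 930 CPM to 1185 and 1204 in the knockout, a rise of 1.29-fold (log2 0.37 ± 0.04, adjusted p = 2.19e-07). In the mutant it had 985 and 1038 CPM, a rise of 1.09-fold (adjusted p = 0.0209) that did not pass in 6 of 15 alternatives, among them those without either wild-type library (range 0.0022 to 0.108). The carriers' values in overexpression, log2 0.04 ± 0.04 for Slc2a1 and 0.03 ± 0.04 for Slc2a3, did not pass. Slc2a1 there depended on the wild-type libraries and on the scaling. Without wild-type replicate 1 the log2 difference was 0.12. When libraries were scaled by their totals alone it was 0.10 and passed (adjusted p = 0.0307).

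Hexokinases trap glucose in the cell by phosphorylating it, and both measured isoenzymes rose in every line. Hk2, the main form here, had 473 and 491 CPM in wild-type cells, 617 and 615 in the knockout, 629 and 617 for the mutant and 551 and 566 in overexpression. All 6 altered libraries lay above both controls, with rises of 1.28-fold, 1.29-fold and 1.16-fold (adjusted p = 2.31e-07, 8.27e-07 and 4.93e-05). In overexpression the 40 other tested genes within 2 Mb of Hk2 had a median log2 change of 0.40, beside 0.21 for Hk2, and their part in its value was not tested. Hk1, the form bound to mitochondria in most tissues (chr10:62268855-62379908), had 38.8 and 38.7 CPM in wild-type cells, 47.9 and 47.6 in the knockout, 50.9 and 48.3 for the mutant and 77.4 and 69.3 in overexpression. Its rise in overexpression was 1.89-fold (log2 0.92 ± 0.05, adjusted p = 3.83e-11), larger than in the knockout by 0.62 and than in the mutant by 0.56 on the log2 scale (adjusted p = 2.91e-08 for the latter). As a share of the hexokinase CPM per kb, Hk1 made up 5.43 and 5.23% in wild type and 8.95 and 7.89% in overexpression, and lay between 5.14 and 5.36% in the other lines.

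Phosphofructokinase, which commits sugar to glycolysis, is built from 3 gene products, and their balance moved toward the platelet form. Pfkp (chr13:6579768-6648777) had 142 and 146 CPM in wild-type cells, 198 and 200 in the knockout, 209 and 210 for the mutant and 292 and 284 in overexpression. No library of an altered line overlapped wild type, and the rises were 1.38-fold, 1.46-fold and 2.00-fold (log2 0.47 ± 0.03, 0.54 ± 0.03 and 1.00 ± 0.03, adjusted p = 5.88e-09, 7.4e-09 and 1.39e-13). Pfkl, the liver form and the most abundant per kb, had 272 and 258 CPM in wild type, fell 1.20-fold in the knockout (216 and 225 CPM, adjusted p = 1.08e-05) and 1.13-fold in overexpression (234 and 233 CPM, adjusted p = 0.000343), and had 269 and 274 CPM in the mutant. Pfkm, the muscle form, fell 1.24-fold in the knockout, from 43.1 and 39.7 to 33.7 and 33.3 CPM (adjusted p = 5.07e-05), and did not pass elsewhere. It shares exon sequence on its own strand with the gene model Gm26513, so some of its reads may belong there. The share of Pfkp in the family's CPM per kb was 16.5 and 17.8% in wild-type cells, 25.8 and 25.4% in the knockout, 23.2 and 22.9% for the mutant and 31.6 and 30.7% in overexpression. The sum of the 3 genes, 64.2 and 61.4 CPM per kb in wild type, was 57.2 and 58.5 in the knockout and 69.1 and 68.8 in overexpression.

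**Figure D3:**
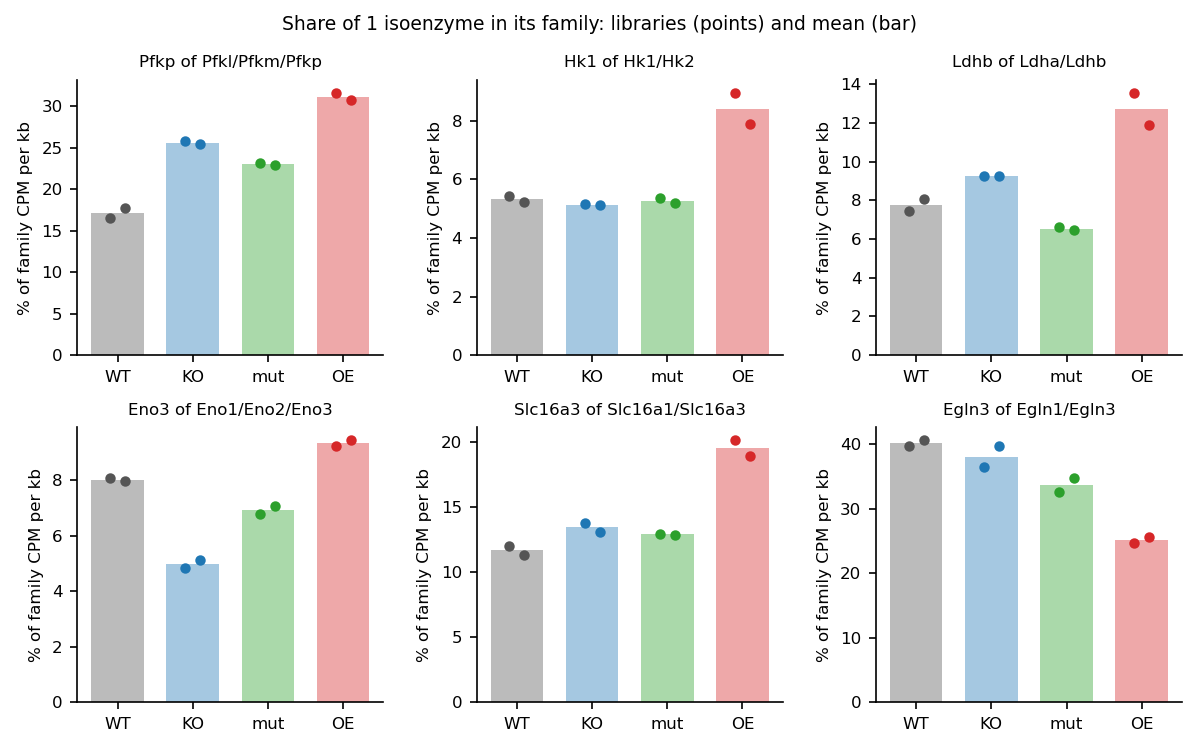
Share of 1 isoenzyme in the summed CPM per kb of its family (vertical axis, %), for 6 families in wild type (WT), the TRIM71 knockout (KO), the Mbnl1 3'UTR mutant (mut) and Mbnl1 overexpression (OE). Points are libraries and bars means of 2; the share of Pfkp rises from 17.1% in wild type to 31.2% in overexpression, and that of Egln3 goes from 40.2% to 25.2%.

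Of the isomerases and aldolases, Gpi1, Aldoa and Tpi1 rose in overexpression. Gpi1, the glucose phosphate isomerase, had 322 CPM in both wild-type libraries, 361 and 347 for the mutant and 373 and 361 in overexpression, rising 1.10-fold and 1.14-fold (adjusted p = 0.0102 and 0.000135). The mutant call was lost without mutant replicate 1 (adjusted p = 0.0517, range 0.00188 to 0.0517). Aldoa, which cleaves the 6-carbon sugar, rose 1.14-fold in overexpression, from 1200 and 1131 to 1333 and 1314 CPM (adjusted p = 0.000579). Tpi1, which interconverts the triose products, rose 1.16-fold, from 277 and 268 to 316 and 315 CPM (adjusted p = 3.09e-05). Aldoc, the brain aldolase, was called higher in the knockout alone, 16.4 and 16.7 against 14.9 and 13.5 CPM (adjusted p = 0.00997), and this call was lost without wild-type replicate 2 (0.12) and without knockout replicate 2 (0.0626; range 0.0018 to 0.12).

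Downstream of the triose step, 5 consecutive enzymes were lower in overexpression. Gapdh, often used as a reference gene, had 2099 and 1947 CPM in wild-type cells, 1925 and 1945 in the knockout, 2147 and 1967 for the mutant and 1834 and 1814 in overexpression. Its fall of 1.11-fold (adjusted p = 0.00787) did not pass without wild-type replicate 1 (0.146), without overexpression replicate 2 (0.0634) or when libraries were scaled by their totals alone (0.0622), in a range of 0.000122 to 0.146. Pgk1, phosphoglycerate kinase on the X chromosome, fell 1.12-fold, from 328 and 324 to 289 and 295 CPM (adjusted p = 0.00147). Pgam1, phosphoglycerate mutase, fell 1.21-fold in overexpression (189 and 199 against 241 and 228 CPM, adjusted p = 0.000434) and 1.16-fold in the knockout (200 and 202 CPM, adjusted p = 0.00284). Pkm fell 1.10-fold in overexpression, from 3130 and 2967 to 2757 and 2769 CPM (adjusted p = 0.00462), a call lost without wild-type replicate 1 (0.083), without overexpression replicate 1 (0.0509) and with scaling by totals alone (0.0538; range 0.000286 to 0.083). The fifth, Eno1, is described with its relatives below.

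The enolases, which make phosphoenolpyruvate, went separate ways. Eno1 had 1129 and 1092 CPM in wild type and 935 and 978 in overexpression, a fall of 1.16-fold (adjusted p = 0.000109), and log2 values of -0.02 and -0.01 in the knockout and the mutant did not pass. Its near-identical copy Eno1b took counts equal to between 18.6 and 20.9% of those of Eno1. With both summed the overexpression change was -0.22 on the log2 scale (adjusted p = 0.000145). Eno3, the muscle enolase (chr11:70657202-70662513), had the deepest fall of any member in the knockout: 32.2 and 30.7 CPM in wild type became 18.3 and 19.1, a fall of 1.69-fold (log2 -0.75 ± 0.06, adjusted p = 7.36e-09). In the mutant it had 25.3 and 27.8 CPM, 1.18-fold lower (adjusted p = 0.00513), a call lost without wild-type replicate 1 (0.0627) or mutant replicate 1 (0.067; range 9.52e-05 to 0.067). In overexpression, with 31.0 and 33.1 CPM, it overlapped wild type. Eno2 rose 1.51-fold in overexpression, from 3.50 and 3.85 to 5.77 and 5.28 CPM (log2 0.59 ± 0.10, adjusted p = 9.09e-05). Its lower value in the knockout, 3.16 and 2.88 CPM (adjusted p = 0.0439), did not pass in 7 of 15 alternatives, among them those without either knockout library, without wild-type replicate 2 and without either overexpression library (range 0.0343 to 0.253). Slc2a3, Eno2, Tpi1 and Gapdh lie between 122727809 and 125166467 on chromosome 6, and in overexpression their log2 changes were 0.03, 0.59, 0.21 and -0.15.

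At the pyruvate branch the heart and muscle lactate dehydrogenase subunits diverged in overexpression. Ldha, the muscle subunit that favours lactate (chr7:46841475-46855627), had 1237 and 1212 CPM in wild-type cells, 1019 and 994 in the knockout, 1193 and 1239 for the mutant and 962 and 989 in overexpression. It fell 1.22-fold in the knockout and 1.26-fold in overexpression (adjusted p = 4.58e-06 and 4.53e-07), with all 4 of these libraries below both controls. Ldhb, the heart subunit, had 47.3 and 50.5 CPM in wild-type cells, 49.5 and 48.2 in the knockout, 40.2 and 40.5 for the mutant and 71.5 and 63.5 in overexpression. It rose 1.38-fold in overexpression (adjusted p = 6.93e-07) and fell 1.21-fold in the mutant (adjusted p = 0.00125), and overexpression stood above the mutant by 0.74 on the log2 scale (adjusted p = 3.31e-09). Its share of the pair was 7.45 and 8.08% in wild type, 6.63 and 6.45% for the mutant and 13.5 and 11.9% in overexpression.

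The lactate carriers also diverged in overexpression. Slc16a1 (MCT1) fell from 247 and 248 CPM to 215 and 224 in the knockout and 198 and 200 in overexpression, 1.13-fold and 1.25-fold (adjusted p = 0.000571 and 5.65e-07). Slc16a3 (MCT4), the carrier of glycolytic muscle, rose 1.47-fold in overexpression, from 40.4 and 38.1 to 59.7 and 56.1 CPM (log2 0.56 ± 0.05, adjusted p = 1.11e-08). In the knockout (41.3 and 40.5 CPM) and the mutant (40.9 and 42.4 CPM) Slc16a3 lay above wild type in every library without passing (adjusted p = 0.316 and 0.247).

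**Figure D4:**
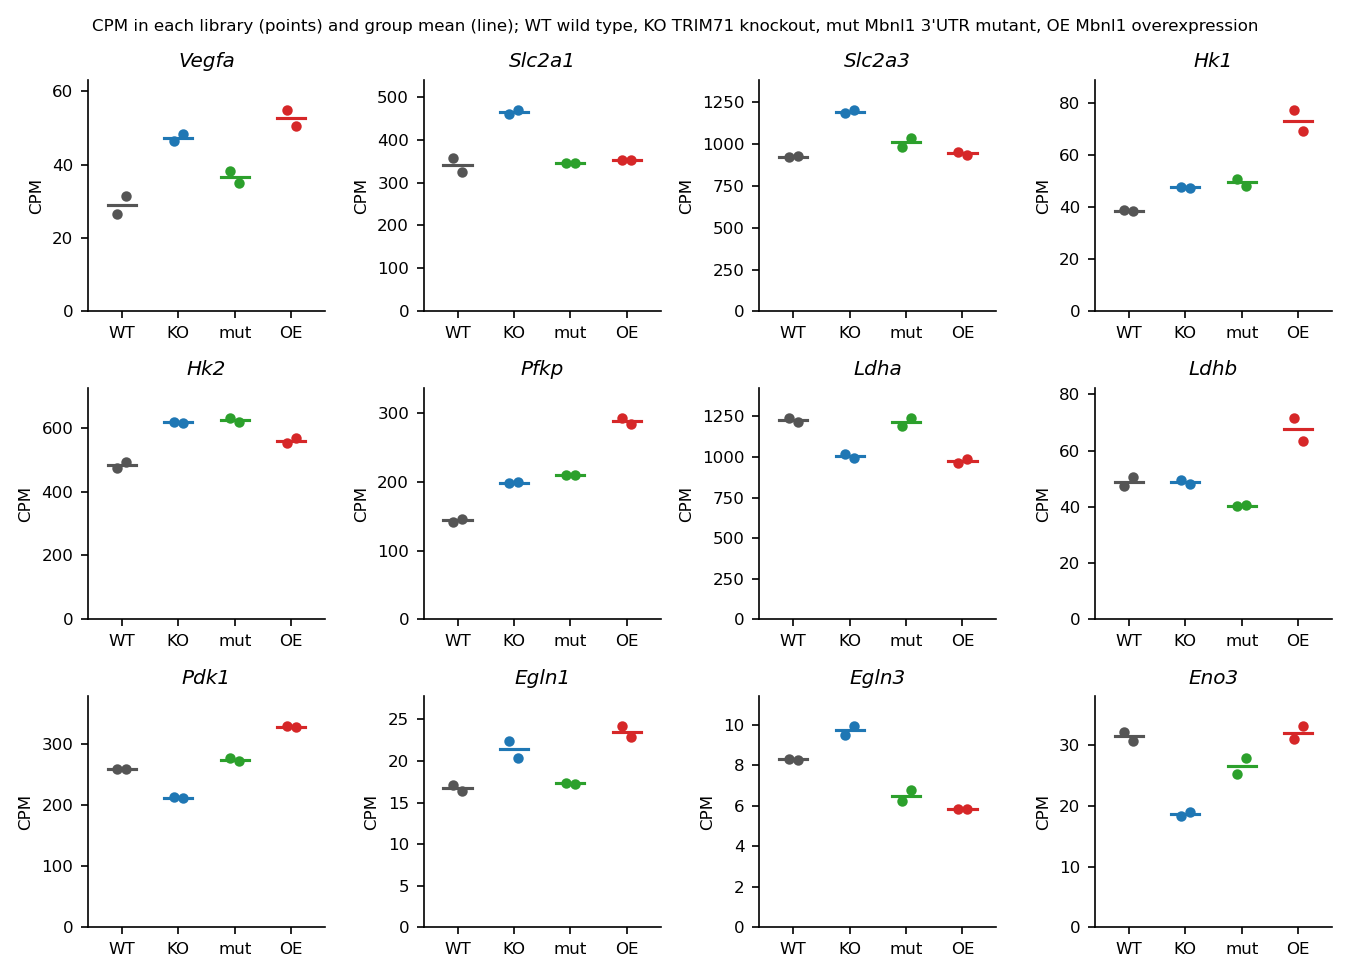
CPM of 12 members in each library (points) with the mean of the 2 libraries of a group (line), for wild type (WT), the TRIM71 knockout (KO), the Mbnl1 3'UTR mutant (mut) and Mbnl1 overexpression (OE); each vertical axis starts at 0. Slc2a1 is high in the knockout alone, Pfkp climbs from 142 and 146 CPM to 292 and 284, and Egln3 and Pdk1 lie on opposite sides of wild type in the knockout and in overexpression.

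Pdk1, the pyruvate dehydrogenase kinase that HIF-1 raises in low oxygen (chr2:71873224-71903858), had 258 and 259 CPM in wild-type cells, 214 and 211 in the knockout, 277 and 272 for the mutant and 329 and 327 in overexpression. The groups did not overlap. Pdk1 fell 1.22-fold in the knockout (log2 -0.29 ± 0.03, adjusted p = 1.36e-06) and rose 1.27-fold in overexpression (log2 0.34 ± 0.03, adjusted p = 7.95e-08). Its log2 difference of 0.08 in the mutant did not pass (adjusted p = 0.0937). On chromosome 2 the medians of other genes in overexpression differed between the sides of Pdk1. The 965 tested genes beyond it, toward the distal end, had a median log2 change of 0.48, and the 532 before it one of -0.05. In the first 10 Mb beyond Pdk1 the median was 0.41 over 57 genes, and in the 10 Mb before it -0.20 over 62 genes. In the knockout the medians beyond and before Pdk1 were -0.01 and -0.03, and in the mutant 0.00 and -0.01. The 0.34 of Pdk1 in overexpression thus lay below the median of the genes just beyond it, while its -0.29 in the knockout stood beside medians near 0. The part of the chromosome's shift in the value of Pdk1 was not tested. The chromosome's lowest step lay far off, 70 to 60 Mb before Pdk1, where 84 genes had medians of -1.72 in overexpression, -0.32 in the knockout and -0.36 in the mutant. Of these, 39 are miRNA gene models inside the gene Sfmbt2, each with a mean of 0.441 CPM or less and with medians of -3.66, -0.84 and -1.08. The 37 protein-coding genes of that step had medians of -0.08, 0.03 and -0.01. Over protein-coding genes alone, the overexpression medians were 0.51 beyond Pdk1 (782 genes) and 0.02 before it (385 genes). Over all 89 genes within 5 Mb on both sides, the median was 0.09 in overexpression. Pdk3, on the X chromosome, had 38.5 and 39.6 CPM in wild-type cells, 34.4 and 35.5 in the knockout and 35.5 in both overexpression libraries. Its falls of 1.12-fold and 1.10-fold (adjusted p = 0.00734 and 0.0143) each lost their call without some libraries: wild-type replicate 2 or knockout replicate 1 in the knockout (range 0.00339 to 0.109), and wild-type replicate 2 or either overexpression library in overexpression (range 0.00771 to 0.155, highest with scaling by totals alone).

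**Figure D5:**
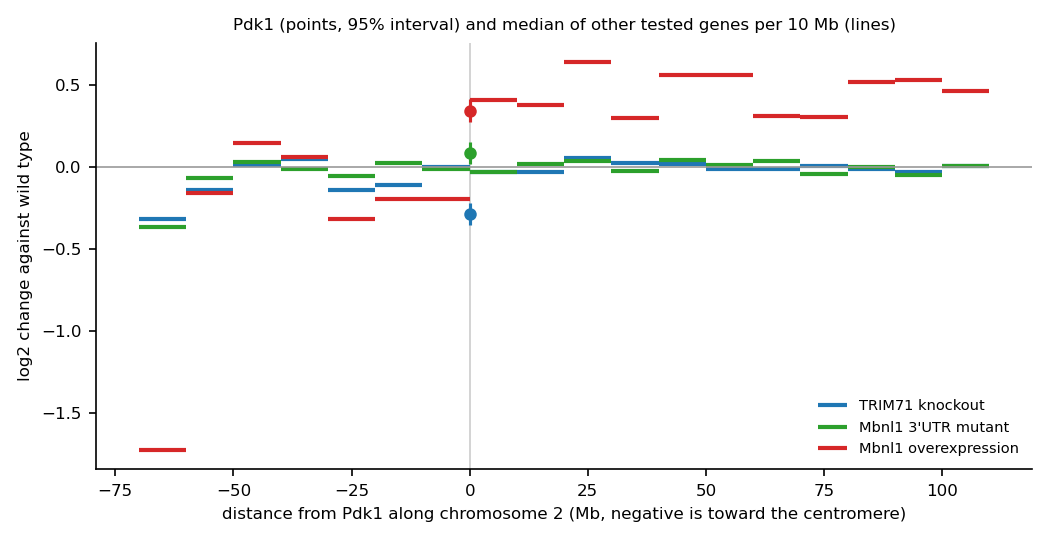
Median log2 change against wild type of other tested genes in steps of 10 Mb along chromosome 2 (lines), by distance from Pdk1, with Pdk1 itself as a point and its 95% interval at 0. In overexpression the medians go from -0.20 just before Pdk1 to 0.41 just beyond it, while those of the knockout and the mutant stay near 0 beyond it; the lowest step, at the left, is -1.72 and holds the miRNA models inside Sfmbt2.

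Among the hypoxia genes of the 32 members, Vegfa, the vascular growth factor (chr17:46016993-46032369), had the largest rise. It had 26.6 and 31.6 CPM in wild-type cells, 46.4 and 48.4 in the knockout, 38.1 and 35.0 for the mutant and 54.8 and 50.6 in overexpression. Every altered library exceeded both controls, and the rises were 1.63-fold, 1.26-fold and 1.81-fold (log2 0.71, 0.33 and 0.86, each ± 0.08, adjusted p = 4.25e-05, 0.0179 and 5.91e-06). The call in the mutant was lost without mutant replicate 1 (0.133) and with scaling by totals alone (0.0733), in a range of 3.4e-10 to 0.133.

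The oxygen sensors, whose own genes HIF-1 raises, did not move as a pair. Egln1 (PHD2), the main HIF prolyl hydroxylase, rose 1.28-fold in the knockout and 1.41-fold in overexpression, from 17.1 and 16.3 CPM to 22.4 and 20.3 and to 24.2 and 22.9 (adjusted p = 6.18e-05 and 9.1e-07). In the mutant it had 17.4 and 17.2 CPM. Egln3 (PHD3) had 8.34 and 8.26 CPM in wild-type cells, 9.52 and 9.93 in the knockout, 6.24 and 6.78 for the mutant and 5.86 in both overexpression libraries. It fell 1.28-fold in the mutant and 1.42-fold in overexpression (adjusted p = 0.00241 and 1.28e-05), and the knockout stood above overexpression by 0.73 on the log2 scale (adjusted p = 1.13e-07). Its rise of 1.17-fold over wild type in the knockout (adjusted p = 0.0125) was lost without wild-type replicate 2 (0.053), without knockout replicate 2 (0.107) and in DESeq2 (0.0597; range 0.00827 to 0.107). Hif1a, which encodes the regulated subunit, had 216 and 226 CPM in wild-type cells, 217 and 222 in the knockout, 245 and 222 for the mutant and 231 and 220 in overexpression. Each altered line overlapped wild type, while both knockout libraries lay just below both mutant libraries (at most 221.7 against at least 221.9). The 95% interval of its log2 difference reached from -0.11 to 0.09 in the knockout and from -0.07 to 0.12 in overexpression. Without mutant replicate 2 its log2 difference in the mutant was 0.15 (adjusted p = 0.014; range 0.014 to 0.949).

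Of the other HIF targets, Bnip3l, Bnip3 and P4ha1 fell in overexpression and Ankrd37 rose. Bnip3l (NIX), a receptor for the removal of mitochondria, fell from 119 and 118 CPM to 97.7 and 94.9 in the knockout and 93.2 and 94.2 in overexpression, 1.23-fold and 1.26-fold (adjusted p = 1.72e-06 and 2.16e-07). In overexpression the 32 other tested genes within 2 Mb of Bnip3l had a median log2 change of -0.35, beside -0.34 for Bnip3l, and their part in its value was not tested. Its relative Bnip3 fell 1.26-fold in overexpression, from 11.0 and 10.6 to 8.79 and 8.33 CPM (adjusted p = 0.000266). The lower Bnip3 in the knockout, 9.33 and 9.82 CPM (adjusted p = 0.0348), did not pass in 5 of 15 alternatives, among them those without wild-type replicate 1 or either knockout library (range 0.0216 to 0.248). P4ha1, a collagen prolyl hydroxylase subunit, fell 1.25-fold in overexpression, from 39.6 and 40.5 to 33.5 and 30.5 CPM (adjusted p = 2.18e-05). In the knockout it had 36.5 and 35.7 CPM (adjusted p = 0.0186), a call lost without wild-type replicate 2 or either knockout library (range 0.00742 to 0.141). Ankrd37, a small ankyrin-repeat gene at low level, had 2.29 and 2.60 CPM in wild type and 3.06 and 3.35 in overexpression, 1.31-fold higher (adjusted p = 0.0139), a call lost without wild-type replicate 1 (0.119) or overexpression replicate 2 (0.107; range 0.0067 to 0.119).

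The altered lines were also compared with each other. Between the knockout and overexpression 22 members differed, 10 higher and 12 lower in the knockout, where 54.8% of all tested genes differed. The carriers Slc2a1 and Slc2a3 (log2 0.40 and 0.34) and Egln3 stood higher in the knockout, and Eno2 (-0.87), Eno3 (-0.78), Pdk1 (-0.63), Hk1 (-0.62) and Pfkp (-0.53) lower. With scaling by totals alone the split was 7 higher and 13 lower. Between the knockout and the mutant 19 members differed, 8 higher and 11 lower, against 45.7% of all genes, with Egln3 (0.58), Slc2a1 (0.43) and Vegfa (0.37) higher and Eno3 (-0.51) and Pdk1 (-0.37) lower in the knockout. Between overexpression and the mutant 24 members differed, 11 higher and 13 lower, against 52.1% of all genes, and with scaling by totals alone 15 were higher and 10 lower. There Ldhb (0.74), Eno2 (0.64), Hk1 (0.56), Vegfa (0.53) and Slc16a3 (0.48) were higher in overexpression, and P4ha1 (-0.33), Ldha (-0.32) and Bnip3l (-0.26) lower. The shares of all genes are not matched for level. Among genes of at least 5 CPM, 70% of members and 65.1% of tested genes differed between the knockout and overexpression. For the knockout and the mutant these shares were 60% and 56.7%, and for overexpression and the mutant 73.3% and 64.4%.

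Other genes of these pathways were taken from lists. Up to 4 called genes of at least 5 CPM are named for each, with standard errors between 0.04 and 0.16 on the log2 scale. Over all tested genes, 24.2% rose and 20.9% fell in the knockout. For the mutant these shares were 8.32% and 7.69%, and for overexpression 27.7% and 27.2%. The counts of each list below are to be read beside these shares, which are not matched for level. They are given without a test. Of 20 tested other glycolysis enzymes and regulators, 8 rose and 6 fell in the knockout, against 1 and 1 for the mutant and 7 and 7 in overexpression (median log2 0.07, 0.05 and 0.01). Pfkfb3, which makes the activator of phosphofructokinase, fell in all 3 lines (log2 -0.97, -0.28 and -0.59), though the mutant call was lost without either wild-type library or mutant replicate 1 and in DESeq2 (adjusted p from 0.00402 to 0.138). It lies on chromosome 2 in the step that holds the miRNA models, and the 14 other protein-coding genes within 2 Mb of it had medians of -0.13, -0.01 and -0.13. The part of this region in the value of Pfkfb3 was not tested. Its relative Pfkfb4 rose in the knockout and overexpression (0.62 and 0.71). Gpd1l, a glycerol phosphate dehydrogenase, rose in the knockout (0.55), and the glucose phosphatase G6pc3 in the knockout and overexpression (0.32 and 0.44). The knockout call of G6pc3 was lost without knockout replicate 2 (adjusted p = 0.0506, range 0.00127 to 0.0506).

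Of 20 genes of pyruvate and lactate handling, 8 rose and 4 fell in the knockout, against 5 and 1 for the mutant and 6 and 5 in overexpression (median log2 0.03, 0.03 and 0.00). Pck2, the mitochondrial enzyme that makes phosphoenolpyruvate, rose in all 3 lines (log2 0.51, 0.43 and 1.11). Emb, a chaperone of monocarboxylate carriers, fell in all 3 (-0.44, -0.25 and -0.95). The mitochondrial pyruvate carrier subunit Mpc1 fell in the knockout (-0.52). Pdhx, a pyruvate dehydrogenase component that also lies on chromosome 2 beyond Pdk1, rose in overexpression (0.50).

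Of 9 genes of the pentose phosphate pathway, which branches off at glucose 6-phosphate, 4 rose and 3 fell in the knockout, against 1 and 1 for the mutant and 3 and 2 in overexpression (median log2 0.15, 0.03 and -0.05). H6pd, the form in the endoplasmic reticulum, rose in the knockout and overexpression (log2 0.15 and 0.96), while Rpe fell (-0.16 and -0.64), as did Rpia (-0.22 and -0.42). Pgls rose in overexpression (0.35), and its call in the mutant (0.14) was lost in 11 of 15 alternatives (adjusted p from 0.0276 to 0.208). The knockout calls of H6pd and Rpia were lost without knockout replicate 2 (adjusted p = 0.104 and 0.173), that of H6pd also without wild-type replicate 1 (0.0753), and that of Rpia also without wild-type replicate 2 (0.117) or knockout replicate 1 (0.06) and in DESeq2 (0.104). Their adjusted p ranged from 0.00943 to 0.104 for H6pd and from 0.0173 to 0.173 for Rpia.

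Of 17 genes of oxygen sensing and HIF partners, 3 rose and 5 fell in the knockout, against 2 and 1 for the mutant and 5 and 3 in overexpression (median log2 -0.06, -0.01 and 0.01). The coactivators Ep300 and Crebbp fell in the knockout (log2 -0.43 and -0.38), the call of Ep300 being lost without either library of the knockout or of the mutant (adjusted p from 3.55e-05 to 0.0963). In overexpression Siah2, a ligase for prolyl hydroxylases, rose (0.87), and Rbx1, a part of the ligase that marks HIF-1α, fell (-0.41).

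Of 32 other hypoxia-induced genes, 10 rose and 13 fell in the knockout, against 7 and 3 for the mutant and 6 and 17 in overexpression (median log2 0.00, 0.01 and -0.15). Ak4, a mitochondrial adenylate kinase, rose in the mutant and overexpression (log2 0.27 and 1.31). P4ha2, the relative of P4ha1, fell in the knockout (-1.10). Ndrg1 fell in the knockout and overexpression (-0.93 and -0.57) and was called higher in the mutant (0.28), a call lost without wild-type replicate 2 (adjusted p = 0.306) or mutant replicate 1 (0.136), in DESeq2 and in a fit of both groups alone (range 0.0119 to 0.306). Hmox1, heme oxygenase, fell in the knockout and overexpression (-0.23 and -0.86).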

How the data were processed

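Total RNA was sequenced with a stranded kit as 75 nt paired-end reads, per the labels' protocols. The authors deposited 1 table of raw read counts per gene for each library. STAR 2.5.0 and the build mm10 are named in the submitters' processing notes; annotation release, counting tool and strand setting: not given in the sources used here. Of 43346 listed genes, 42462 were matched by identifier without version to GENCODE coordinates and symbols.

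Counts were fitted in R 4.3.3 with edgeR 4.0.16 (TMM scaling, filterByExpr with a minimum count of 10, robust quasi-likelihood, 8 libraries in 1 model, 4 residual degrees of freedom). Benjamini-Hochberg adjustment ran over all 18055 tested genes, with calls at 0.05. An exact permutation test of 2 against 2 libraries cannot go below 0.333. The procedure was tested on simulated data. Alternatives were DESeq2 1.42.0, other scalings and filters, a replicate block, the compared groups alone, and leaving out each library. Genes of the other lists were named by size of change. The members and lists were chosen with earlier results of these data known. Counting intervals are not given, since library spread exceeded counting error.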

Additional observations from a re-analysis of the deposited data

How the results depend on the processing

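The counts of called members stayed within 1.5 times their reported values under DESeq2, the other scalings and filters, fits of the compared groups alone and the omission of each library, and no named change reversed. Of 56 calls of members against wild type, 42 held under every alternative; the others are named in the results with the range of their adjusted p. Leaving out each library in turn gave 16 to 22 called members (knockout), 6 to 11 (mutant) and 23 to 26 (overexpression). The number of all genes called in the mutant ranged from 1883, without wild-type replicate 1, to 3333, against 2891 in the main analysis. Within 2 Mb of Pdk1 in place of 5 Mb, the other genes had median log2 changes of -0.043 (knockout), 0.0105 (mutant) and 0.1354 (overexpression). With the Eno1b counts added to Eno1, an alternative chosen after seeing the data, no call of Eno1 changed.

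Replicate differences of any 2 groups correlated across genes by between -0.0343 and 0.06, so the replicate numbers of the labels gave no pairing. A fit with the replicate number as a block called 21, 9 and 26 members in the knockout, mutant and overexpression. Of the genes named outside the members, Pgls in the mutant lost its call under the block (adjusted p = 0.055).

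With 2 libraries a group, small changes rest on spread shared over genes, and it is not stated whether both come from the same clone. Low members such as Eno2 and Ankrd37 are the least precise. Counts per gene cannot show isoforms, such as those of Pkm, and mRNA levels do not measure enzyme activity or oxygen.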

Other observations

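The surroundings of all 32 members were listed in the same way as for Pdk1. Among the 26 members called in overexpression, the median log2 change of other tested genes within 5 Mb ran from -0.25 to 0.17 and had the sign of the member's own change for 18. Within 2 Mb it ran from -0.54 to 0.40 and had that sign for 16. In the knockout the sign was shared for 9 of 21 called members within 5 Mb and 10 within 2 Mb, and in the mutant for 5 of 9 and 6 of 9. The share of all tested genes that have the sign of their neighbours was not computed, so these counts have no background. Members that lie close together, such as Tpi1 and Gapdh, share neighbours and are not separate observations.

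The members named next, all in overexpression, were chosen after their values were seen. Around Hk2 on chromosome 6 the median was 0.17 over 89 genes within 5 Mb, with 44.9% called higher, and 0.40 over 40 genes within 2 Mb, with 72.5% called higher, beside 0.21 for Hk2. Around Bnip3l on chromosome 14 it was -0.13 over 87 genes and -0.35 over 32, with 41.4% and 56.2% called lower, beside -0.34 for Bnip3l. Around Egln3 on chromosome 12 it was -0.25 over 47 genes and -0.26 over 21, beside -0.50 for Egln3. Around Pgk1 on the X chromosome it was -0.22 over 73 genes and -0.20 over 24, beside -0.16 for Pgk1. Around Pfkp on chromosome 13 it was -0.24 over 24 genes, with 41.7% called lower, while Pfkp rose by 1.00. Around Hk1 on chromosome 10 it was -0.01 over 75 genes, with Hk1 at 0.92. The part of the neighbours' changes in the members' values was not tested.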
